A study of Mus musculus with 10 samples.

Results

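The genes described are those that encode the subunits of the mitochondrial oxidative phosphorylation complexes, with the assembly factors that share their symbols, in mouse embryonic stem (ES) cells treated with an inhibitor of the histone acetyltransferase Kat2a. Members were chosen by symbol from the RNA-seq count table: protein-coding genes named mt-Nd, mt-Co, mt-Cytb, mt-Atp, Nduf, Uqcr, Sdha to Sdhd, Atp5 or Cox4 to Cox8, with at least 10 counts in every library. Of 30677 genes in the table, 106 were members, 13 encoded in mitochondrial DNA and 93 in the nucleus. Another 4 genes fitted the symbols but had fewer counts (Cox4i2, Cox6a2, Cox8b and Cox8c). The cells were TNGA cells, an ES cell line with a GFP reporter at 1 allele of Nanog, grown in serum and leukaemia inhibitory factor (LIF). One group, of 3 libraries, received DMSO, the vehicle; the other, also of 3 libraries, received 100 μM MB-3, the Kat2a inhibitor. Both were treated for 48 hours, and all cultures, the controls included, held 0.1% DMSO. MB-3 is a chemical inhibitor, so the groups differ by a compound and not by a deleted gene, and all libraries come from 1 cell line.

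Oxidative phosphorylation is carried out in the inner mitochondrial membrane. Complexes I and II take electrons from NADH and succinate, complex III passes them to cytochrome c, and complex IV passes them to oxygen. Complexes I, III and IV pump protons as they do so, and complex V, the ATP synthase, uses the proton gradient to make ATP. Complex II is encoded by nuclear genes alone, whereas each of the others joins nuclear subunits to a core encoded in mitochondrial DNA, so its genes are transcribed in separate compartments. Mouse ES cells in serum and LIF are known for a high rate of glycolysis beside active respiration.

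The libraries held between 42270312 and 51137896 counts. Nuclear members took 0.923% to 1.01% of the counts of a library and mitochondrially encoded members 3.41% to 4.16%. The labelled cell type was checked against its markers: the 8 pluripotency genes summed to between 4097 and 4526 CPM, counts scaled by library size, in DMSO libraries and between 4067 and 4302 in MB-3 libraries. In the count model of all 20027 tested genes (the quasi-likelihood test of edgeR, adjusted by Benjamini-Hochberg), 41 genes passed an adjusted p of 0.05. With the replicate letter as a block 1425 genes passed, a change of over 1.5 times, so blocked values are given wherever they alter a call. In bulk RNA, fewer cells of a type and less RNA per cell cannot be told apart.

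No oxidative phosphorylation gene was called between MB-3 and DMSO by treatment alone, and most were measured closely enough to bound a difference. None of the 106 members passed the adjusted threshold by edgeR, against 0.205% of all genes tested. At an unadjusted p under 0.05 there were 5 members, against 10.9% of all genes. DESeq2 and limma-voom also called 0 members, and 192 and 18 of all genes. With so few calls over all genes, 0 of 106 members is near the background. The median log2 fold change, MB-3 against DMSO, was -0.05 over the members and 0.00 over all genes, with 81 of the 106 members below 0 against 50.3% of all genes. The 95% interval of the fold change lay wholly within 1.2-fold in either direction for 76 members, and for 37.1% of all genes. The members were more abundant than most genes, with a median of 63.5 CPM against 10.5 CPM for all genes tested, and their fold changes had a median standard error of 0.07 against 0.10.

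**Figure D1:**
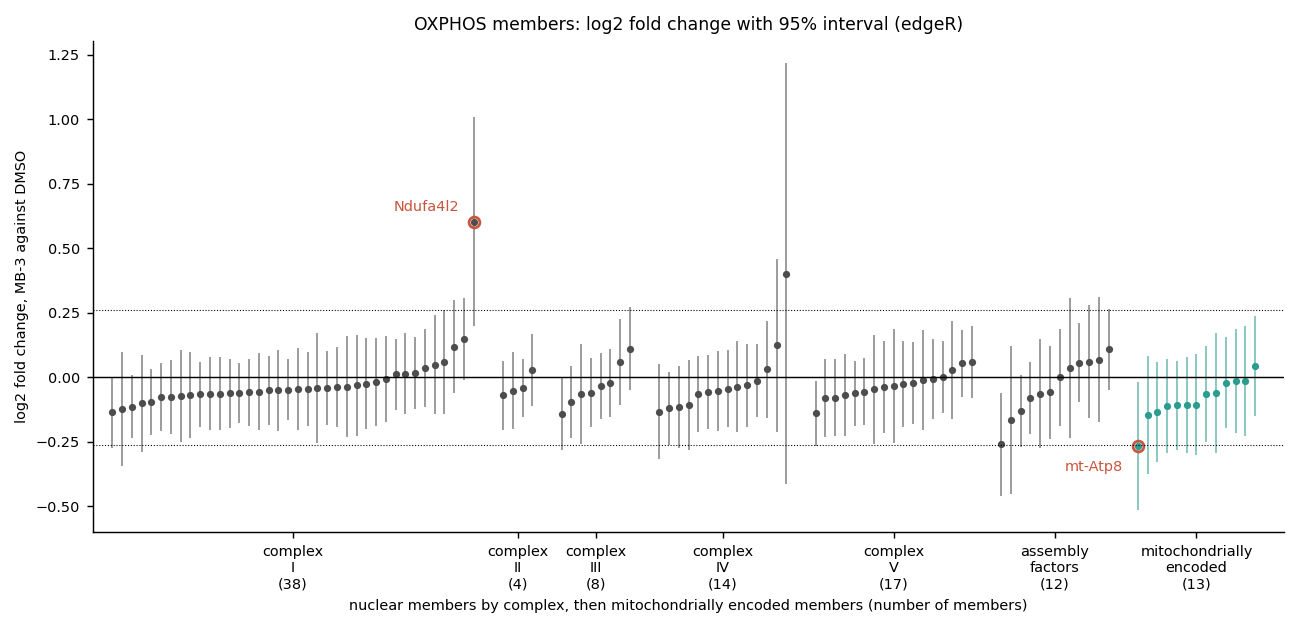
Fitted log2 fold change of each of the 106 members (points) with its 95% interval (lines), nuclear members by complex in grey and mitochondrially encoded members in green, sorted within each group. Dotted lines mark 1.2-fold; rings mark Ndufa4l2 (0.60) and mt-Atp8 (-0.27), which passed the threshold, among the fits of all 6 libraries, only with the replicate letter as a block.

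Complex I, the NADH dehydrogenase and the largest of the complexes, had 38 nuclear members by symbol. This group includes Ndufa4, later placed in complex IV, and its paralogue Ndufa4l2. The median log2 fold change of the 38 was -0.05 in a range from -0.14 (Ndufb11) to 0.60 (Ndufa4l2). Among the nuclear members of complex I, Ndufs1, an iron-sulphur subunit of the electron input arm, had the highest CPM, at 144, 149 and 138 CPM in DMSO, and at 134, 143 and 139 in MB-3. These values overlap, and the log2 fold change of Ndufs1 was -0.05 ± 0.05 (SE; adjusted p = 0.80, edgeR). Ndufb9, an accessory subunit and the next in level, was at 139.6 ± 7.01 CPM with DMSO and 131 ± 6.05 with MB-3 (SD, n = 3). Ndufb11, an accessory subunit of the membrane arm, was at 68.3 ± 2.003 CPM with DMSO and 62.2 ± 4.38 with MB-3 (SD, n = 3), with a log2 interval from -0.27 to 0.00. Leaving Ndufa4l2 aside, the highest fold change in complex I was that of Ndufv3, an accessory subunit next to the NADH-binding site, at 0.15 ± 0.07 (SE).

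Complex II, the succinate dehydrogenase, had the narrowest range of the nuclear groups. All 4 of its genes had intervals within 1.2-fold, and their log2 fold changes ran from -0.07 (Sdhd) to 0.03 (Sdhc), the genes of its membrane anchors. Sdha, the flavoprotein that oxidises succinate, was at 224, 232 and 217 CPM in DMSO, and at 217, 218 and 219 in MB-3. The groups overlapped at their lowest values, and the log2 interval of Sdha ran from -0.15 to 0.07.

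The 8 nuclear members of complex III had a median log2 fold change of -0.05, and 6 of the 8 intervals were within 1.2-fold. Uqcrc1 and Uqcrc2, the core subunits, were the most abundant by CPM at 184 and 139 CPM over the 6 libraries, with log2 fold changes of -0.02 and -0.03. The extremes were the small subunits Uqcrq, at -0.14 ± 0.06, and Uqcr11, at 0.11 ± 0.07 (SE).

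Complex IV, the cytochrome c oxidase, had 14 nuclear members with a median of -0.05 and 9 intervals within 1.2-fold. Cox4i1, the ubiquitous form of a subunit that takes part in regulation by ATP, was at 265, 320 and 277 CPM in DMSO, and at 264, 287 and 281 in MB-3, so the groups overlapped. Cox6c was at 213 ± 24.7 CPM with DMSO and 217 ± 22.0 with MB-3 (SD, n = 3). The range ran from -0.13 (Cox6b2) to 0.40 (Cox7b2), but Cox7b2 had only 11 to 30 counts per library and a log2 interval from -0.42 to 1.22, so no difference was detectable for it at this depth.

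Complex V had 17 nuclear members, all but Atp5g2 with intervals within 1.2-fold, and a median of -0.03. It held the most abundant nuclear members by length: the catalytic beta subunit Atp5b at 446 CPM per kb of annotated exon and the alpha subunit Atp5a1 at 329 CPM per kb. Atp5b stood at 1823, 1969.8 and 1875 CPM in DMSO, and at 1816, 1976 and 1887 in MB-3, and its log2 fold change was 0.00 ± 0.07 (SE) with an interval from -0.14 to 0.14. Atp5a1 had the highest fold change of complex V, at 0.06 ± 0.07 (SE), and Atp5g2, a gene of the rotor ring subunit c, the lowest at -0.14 ± 0.06 (SE).

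The 12 assembly factors, which build complexes I and II and are not part of them, had a median of -0.03. Among them Ndufaf4 and Sdhaf2 were the most abundant, at 45.2 and 30.6 CPM over the 6 libraries. The values ran from -0.26 ± 0.09 (Ndufaf5) to 0.11 ± 0.07 (Ndufaf7, SE). Their expression was lower than that of the subunits and their errors were larger, with a median SE of 0.09.

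For 5 members the libraries of the treatments did not overlap, against 15.6% of all genes. Ndufa4l2 was the only such member that was higher in MB-3, against 8.22% of all genes in that direction. Uqcrq, Atp5g2, Ndufaf4 and Ndufaf5 were lower, against 7.37% of all genes. None of these counts exceeds the background.

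Ndufa4l2 encodes a paralogue of Ndufa4, a subunit first described in complex I and later placed in complex IV, and is best known as a target of the hypoxia-inducible factor. It lies on chr10:127514967-127517154 (GRCm38, plus strand) and stood at 2.37, 3.01 and 2.12 CPM in DMSO, and at 3.58, 4.78 and 3.06 in MB-3. The groups did not overlap, but by a narrow gap, from 3.01 to 3.06 CPM, and replicate B was the highest in both groups. The log2 fold change was 0.60 ± 0.19 (SE), with an interval from 0.20 to 1.01 and an adjusted p of 0.25 (edgeR). When blocked by replicate letter it was 0.60 with an adjusted p of 0.0041, and the differences within letters A, B and C were 0.59, 0.67 and 0.53. Without DMSO replicate B and with no block, Ndufa4l2 also passed, at 0.76 with an adjusted p of 0.048. The last 32 bases of the gene overlap the end of Shmt2, a mitochondrial serine hydroxymethyltransferase, on the opposite strand. Whether the counting used strand is not given in the sources used here. The same limit holds for all 34 members, 31 of them nuclear, whose exons overlap a gene on the opposite strand, such as Ndufs1, Cox4i1, Cox6c and Atp5a1. Shmt2 was at 241 ± 7.25 CPM with DMSO and 208 ± 12.7 with MB-3 (SD, n = 3), a difference in the other direction (log2 fold change -0.21, adjusted p = 0.21, and 0.0012 with the block). Ndufa4l2 had 101 to 210 counts per library.

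The members that were lower without overlap were each lower by a small step. Uqcrq, on chr11:53427922-53430831, was at 50.4, 54.4 and 50.99 CPM in DMSO, and at 44.2, 47.7 and 49.4 in MB-3. Atp5g2, on chr15:102662864-102672352, was at 87.2, 94.7 and 86.8 CPM in DMSO, and at 77.8, 84.2 and 81.9 in MB-3. The highest MB-3 library of each gene was just under the lowest DMSO library. Ndufaf4, on chr4:24898083-24905001, was at 46.1, 46.3 and 49.4 CPM in DMSO, and at 40.9, 42.8 and 46.0 in MB-3. Ndufaf5, on chr2:140170649-140203689, was at 9.70, 9.49 and 8.96 CPM in DMSO, and at 7.29, 7.99 and 8.26 in MB-3. Ndufaf5 and Ndufaf4 both serve the building of complex I. Their adjusted p-values were 0.44 for Uqcrq, 0.41 for Atp5g2, 0.49 for Ndufaf4 and 0.32 for Ndufaf5 by edgeR, and 0.098, 0.066, 0.13 and 0.072 with the block. The coordinates are those of GRCm38.

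**Figure D2:**
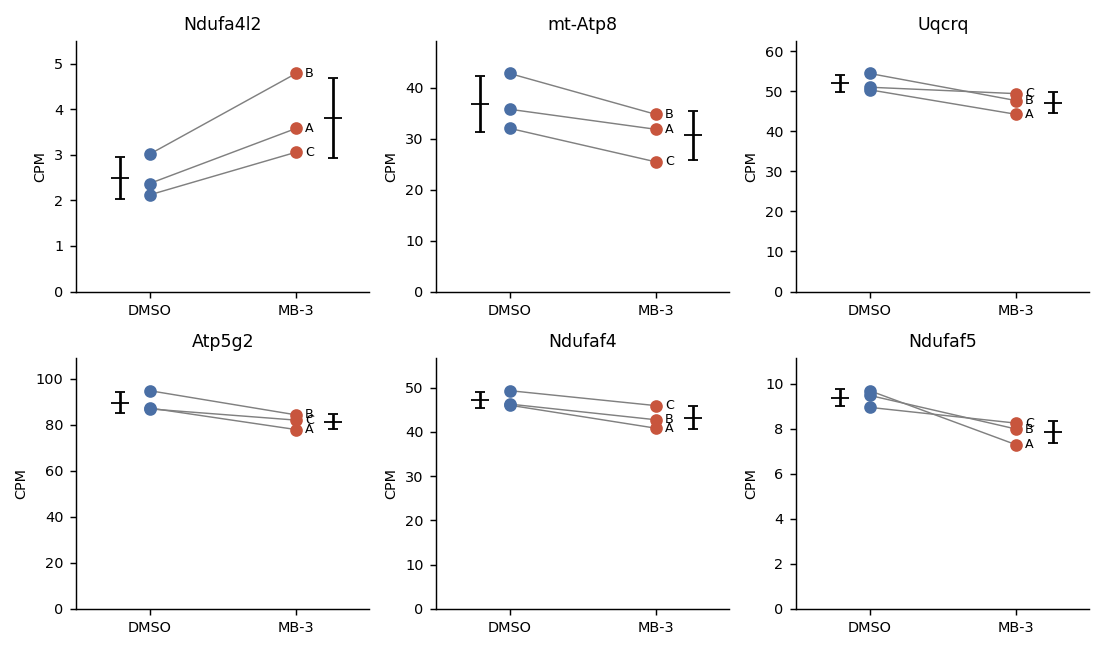
CPM of 6 members in each library (blue, DMSO; red, MB-3), with grey lines joining libraries of the same replicate letter and black bars for the mean ± SD of 3 libraries. For Ndufa4l2 the MB-3 libraries are all higher; mt-Atp8 overlaps between treatments but is lower in MB-3 within each letter; the other 4 are lower without overlap. Each y axis starts at 0.

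The 13 mitochondrially encoded members had a median log2 fold change of -0.11, 12 of them were below 0, and 5 had intervals within 1.2-fold. None passed the adjusted threshold by edgeR, and 1, mt-Atp8, had an unadjusted p under 0.05. Differences between libraries stood beside these values. MB-3 replicate C was the lowest of the MB-3 libraries for all 13, with a mean of -0.21 on the log2 scale relative to each gene's mean over the 6 libraries. Replicate B was high in both groups, with means of 0.15 in DMSO and 0.13 in MB-3. The 13 genes therefore moved together between libraries of the same treatment: the DMSO mean over the 13 was 0.04 ± 0.11 and the MB-3 mean -0.04 ± 0.17 (SD, n = 3), a gap smaller than either SD. These SDs hold the spread between letters. Within letters A, B and C the median differences over the 13 were -0.13, -0.05 and -0.15, all below 0, with 11, 7 and 12 of the 13 genes lower in MB-3. Without MB-3 replicate C the median over the 13 was -0.01, and without DMSO replicate B it was -0.05.

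Among the nuclear members replicate B was high too, and the order of A and C differed from that of the mitochondrially encoded members. Replicate A had the lowest mean in both groups, at -0.05 in DMSO and -0.06 in MB-3, with replicate C at -0.03 and -0.02, whereas over the 13 replicate C was the lowest, at -0.06 in DMSO. DMSO replicate B was the highest DMSO library for 81 of the 93, against 37.1% of all genes, and MB-3 replicate B the highest MB-3 library for 56, against 31.7% of all genes. Their library means were 0.01 ± 0.09 for DMSO and -0.01 ± 0.05 for MB-3 (SD, n = 3). Without DMSO replicate B the nuclear median turned from -0.04 to 0.01. The nuclear median was 0.06 above the mitochondrial one, a difference of medians that became -0.03 without MB-3 replicate C. Counts from mitochondrially encoded members per count from nuclear members were 4.32, 3.95 and 3.98 in DMSO and 3.997, 4.32 and 3.56 in MB-3, which overlap.

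**Figure D3:**
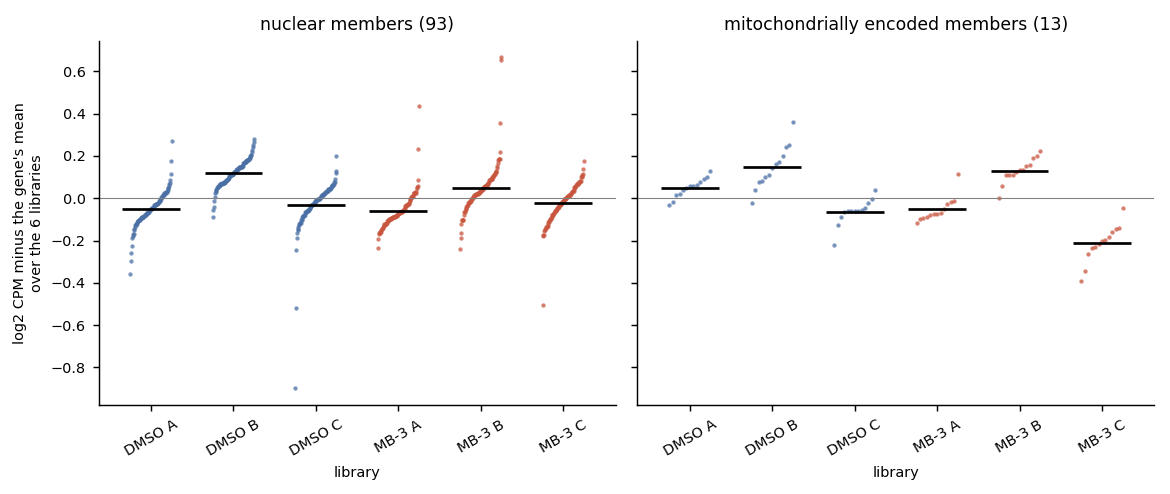
Each point is 1 member in 1 library: its log2 CPM minus its own mean over the 6 libraries, for the nuclear members (left) and the mitochondrially encoded members (right), with the mean of the members as a black line (blue, DMSO; red, MB-3). Replicate B is high in both treatments, and in MB-3 replicate C the mitochondrially encoded members have a mean of -0.21.

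Within letters, 29 of the 106 members were lower in MB-3 in all 3 letters, against 20.3% of all genes, and 11 were higher in all 3, against 20.2%. With the replicate letter as a block, 2 members passed an adjusted p of 0.05, against 7.12% of all genes, and 18 had an unadjusted p under 0.05, against 20.1% of all genes, 15 of them below 0. The 2 were Ndufa4l2, higher, against 3.22% of all genes called higher, and mt-Atp8, lower, against 3.9% called lower. Over all members the shares called were below the background in both directions, which pools members of both genomes. In the deposited counts, 7 of the 13 mitochondrially encoded members had an unadjusted p under 0.05 with the block, all below 0. Of the 93 nuclear members 11 did, against the 20.1% of all genes. For most of those 7 mitochondrial genes, adding the counts of their nuclear copies, described below, raised the adjusted p. How many stay under an unadjusted 0.05 is not given for the summed counts. Of the 13, 6 were lower in all 3 letters and 0 were higher, and of the 93, 23 were lower and 11 higher. The 13 genes are transcribed as long shared precursors, so their values are not independent of each other, and the difference between the genomes was not tested.

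mt-Atp8, which encodes a small membrane subunit of complex V, was at 35.7, 42.8 and 32.0 CPM in DMSO, and at 31.8, 34.7 and 25.4 in MB-3. The groups overlapped, and the lowest value was in MB-3 replicate C. Its log2 fold change was -0.27 ± 0.12 (SE; adjusted p = 0.42, edgeR), and with the block it was -0.27 with an adjusted p of 0.0020. The differences within letters A, B and C were -0.17, -0.30 and -0.33. With no block, the value was -0.14 without DMSO replicate B and -0.15 without MB-3 replicate C. mt-Atp8 overlaps mt-Atp6, the gene of another membrane subunit of complex V, by 43 bases on the same strand. For mt-Atp6 the log2 fold change was -0.11 ± 0.09 (SE; adjusted p = 0.71, and 0.13 with the block).

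Of the other mitochondrially encoded members, mt-Cytb, the cytochrome b of complex III, was at 8807, 8541 and 8048 CPM in DMSO, and at 7582, 8693 and 6878 in MB-3. Its log2 fold change was -0.13 ± 0.09 (SE; adjusted p = 0.62, and 0.065 with the block). mt-Co1, the catalytic subunit of complex IV, was at 8918 ± 347 CPM with DMSO and 8527 ± 906 with MB-3 (SD, n = 3). The remaining mitochondrially encoded core subunit genes of complex IV, mt-Co2 and mt-Co3, both had log2 fold changes of -0.11. In complex I the log2 fold changes were -0.14 for mt-Nd3, -0.11 for mt-Nd4, -0.06 for mt-Nd6, -0.02 for mt-Nd5, and -0.01 for both mt-Nd2 and mt-Nd1, and 0.04 for mt-Nd4l. mt-Nd5 (chrM:11742-13565) and mt-Nd6 (chrM:13552-14070) lie on opposite strands and overlap only at their ends, so counts of reads there may not be separate.

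The deposited level of a mitochondrial gene differed with the share of its sequence that has an exact second copy in the nuclear genome. In GRCm38, chr1:24611535-24616184 holds a copy of chrM:6394-11042 in reverse orientation, 4650 bases that cover 28.5% of mitochondrial DNA. The copy and the original are identical at 4648 aligned positions, or 99.957%. The only differences are the substitution T9461C, numbered on mitochondrial DNA with the mitochondrial base first, and 1 extra A in the copy after position 9820. mt-Atp8, the member called lower with the block, lies wholly within the copied segment, and its 204 bases, at chrM:7766-7969 on the plus strand and chr1:24614609-24614812 on the minus strand, are the same in both places:

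mt-Atp8 and its nuclear copy: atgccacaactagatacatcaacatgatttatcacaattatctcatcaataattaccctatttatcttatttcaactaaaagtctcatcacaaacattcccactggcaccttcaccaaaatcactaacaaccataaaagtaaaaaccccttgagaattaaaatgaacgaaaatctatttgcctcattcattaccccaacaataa

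The substitution T9461C lies in mt-Nd3. The 61 bases around it show the only place where a read of this segment can be told from its copy by a substitution, with the differing base in capitals. The mitochondrial run is chrM:9431-9491 and the nuclear one chr1:24613087-24613147 on the minus strand:

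mitochondrial DNA: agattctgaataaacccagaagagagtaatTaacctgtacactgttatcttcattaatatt
nuclear copy: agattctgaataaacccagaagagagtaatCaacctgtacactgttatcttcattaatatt

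Of the 13 genes, 6 had exact second copies for over 90% of their 50-base windows: mt-Atp6, mt-Atp8, mt-Co2, mt-Co3 and mt-Nd4l at 100% and mt-Nd3 at 99.0%. These 6 were deposited at 65.6 to 568 CPM per kb. The 5 genes with such copies for under 10% of windows (mt-Cytb, mt-Nd1, mt-Nd2, mt-Nd5 and mt-Nd6) were at 2272 to 7965 CPM per kb, and the ranges do not overlap. The 2 genes copied in part, mt-Co1 at 51.2% and mt-Nd4 at 62.2%, were at 5646 and 2388 CPM per kb.

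The count table also lists 7 annotated pseudogenes on the nuclear copy, which are no members because they are not protein-coding. They held 4.49% to 5.62% of the counts of a library, more than the 13 members themselves, and Gm10925, the copy of mt-Atp6, was the most counted gene in all 6 libraries, with a mean of 17452 CPM against 387 CPM for mt-Atp6. Members and pseudogenes together took 7.90% to 9.79% of counts. When the counts of each pseudogene were added to those of its mitochondrial gene, mt-Atp6 stood at 26194 CPM per kb, mt-Co2 at 14331 CPM per kb and mt-Co3 at 12806 CPM per kb, above every gene without a copy. mt-Atp8 has no annotated pseudogene of its own and stayed at 165 CPM per kb. To which of the copies the aligner assigned reads was not tested, and the rule it used is not given in the sources used here.

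The calls of members did not change with the pseudogenes, but the values of some copied genes did. None of the 7 passed the adjusted threshold by edgeR, with or without the block, and their log2 fold changes ran from -0.10 (Gm29216) to -0.04 (Gm10222). With the counts summed, the median over the 13 mitochondrial genes was -0.07 in place of -0.11, mt-Co2 was at -0.10 and mt-Atp6 at -0.07. The deposited median was -0.11 for genes with copies for over 90% of windows and -0.02 for those under 10%. Summed and blocked, values moved toward 0 for mt-Nd3 (-0.15 to -0.08), mt-Nd4 (-0.11 to -0.07), mt-Co3 (-0.11 to -0.09), mt-Co2 (-0.12 to -0.10) and mt-Atp6 (-0.11 to -0.08). They moved down for mt-Co1 (-0.07 to -0.09) and mt-Nd4l (0.05 to -0.03). With the block, summing raised the adjusted p (edgeR) from 0.051 to 0.35 for mt-Nd3 and from 0.12 to 0.36 for mt-Nd4. The adjusted p also rose for mt-Co3 (0.12 to 0.27), mt-Co2 (0.12 to 0.18) and mt-Atp6 (0.13 to 0.32). It fell for mt-Co1 (0.48 to 0.28), and was little changed for mt-Cytb (0.065 to 0.063) and mt-Atp8 (0.0020 in both). The summed fit called 0 members, and with the block it called Ndufa4l2 and mt-Atp8, as before. Because 100% of the windows of mt-Atp8 have a second copy, and the only annotated pseudogene over that copy is Gm10925, which reaches its last 43 bases, its value is uncertain.

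**Figure D4:**
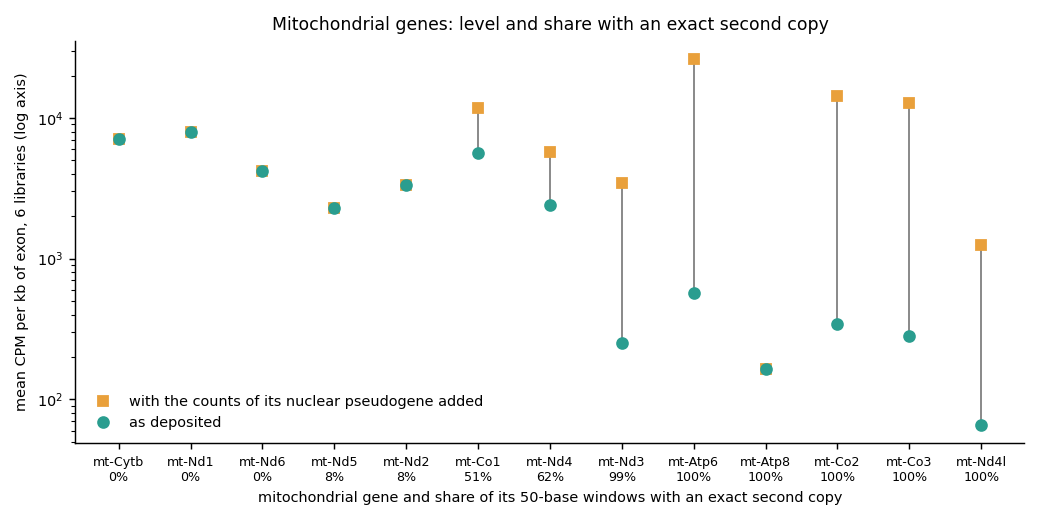
Mean level of the 13 mitochondrially encoded members over 6 libraries, in CPM per kb of exon on a log axis, as deposited (green circles) and with the counts of the matching nuclear pseudogene added (orange squares); genes are ordered by the share of their 50-base windows with an exact second copy. Genes with copies for over 90% of windows are at 65.6 to 568 CPM per kb as deposited, below the 2272 to 7965 CPM per kb of those with under 10%.

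Among nuclear members exact copies were less extensive. Of the 93, 39 had none for any 50-base window, and 18 had them for over 10% of windows. The highest shares were those of Cox7a2l (44.7%), Ndufs5 (40.0%) and Atp5g2 (30.8%), so the counts of these genes may be divided among processed pseudogenes and are uncertain.

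Several subunits exist as pairs or sets of genes with known tissue preference. Within each set the per-length share of the ubiquitous gene was computed in each library. Length was that of all annotated exons of a gene, merged. Cox4i1 made up 99.7% to 99.9% of the Cox4 transcripts, Cox6a1 99.92% to 100% of Cox6a and Cox8a 99.75% to 99.95% of Cox8. Cox4i2, the oxygen-responsive form, had 6 to 19 counts per library, and Cox6a2 and Cox8b, the heart and muscle forms, 0 to 5 and 0 to 1 counts.

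Other sets were mixed. Cox6b2, known as the testis form, made up 12.9%, 14.0% and 13.8% of Cox6b in DMSO and 13.1%, 12.1% and 13.8% in MB-3, a range that overlaps. Cox7a1, the heart and muscle form, made up 3.795% to 4.50% of the Cox7a genes in DMSO and 4.27% to 5.37% in MB-3, beside nearly equal shares of Cox7a2 and Cox7a2l, a supercomplex assembly gene. Atp5g3 and Atp5g2, which encode the same mature subunit c as Atp5g1, stood at 58.5 and 51.01 CPM per kb, and Atp5g1 at 12.1 CPM per kb. In CPM, Atp5g3, Atp5g2 and Atp5g1 were at 127.6, 85.4 and 59.3, with annotated exons of 2181, 1675 and 4912 bases. The per-length gap therefore depends on the annotated length. Ndufa4l2 made up 2.67% to 3.23% of Ndufa4 and Ndufa4l2 together in DMSO and 3.92% to 5.24% in MB-3, without overlap, while Ndufa4 itself differed by -0.04 ± 0.07 on the log2 scale (SE).

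Promoters of nuclear members were read from RefSeq (GRCm38.p6), from 250 bases before to 50 bases after each transcript start, and 77 of the 93 members had one. The Nrf1 letters GCATGCGC, on either strand, stood in 12 of the 77 (15.6%) and in 3.05% of all genes with a promoter. The ETS letters CCGGAAG stood in 27.3% against 9.93%, and the Yy1 letters AAGATGGC in 12.99% against 3.19%. The Yy1 letters were mostly after the start: in the 200 bases before it they stood in 1.30% of the 77 members and 1.40% of all genes. The factors named bind such letters and are known regulators of respiratory genes. The TATA letters TATAAA were in 9.09% of the 77 members and 15.7% of all genes, and the CCAAT letters in 44.2% and 41.1%. The Sp1 letters GGGCGG were in 48.1% and 38.2% and the E-box CACGTG in 6.49% and 8.09%. The Esrrb letters TCAAGGTC were in 5.19%, or 4 of the 77, and in 1.18% of all genes. In the 200 bases before the start the Esrrb letters were in 1.30% and 0.818%. Member promoters had a median GC content of 58.5% against 52.7% for all, which these shares do not take into account.

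Of the members whose treatments did not overlap, 3 had a promoter in the table (Atp5g2, Ndufaf4 and Ndufaf5), and the 2 with Nrf1 letters before the start are shown. The 250 bases before the start of Atp5g2 (chr15:102671048-102671297, minus strand) and of Ndufaf4 (chr4:24897833-24898082, plus strand) follow, with the Nrf1 letters of either strand in capitals:

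Atp5g2: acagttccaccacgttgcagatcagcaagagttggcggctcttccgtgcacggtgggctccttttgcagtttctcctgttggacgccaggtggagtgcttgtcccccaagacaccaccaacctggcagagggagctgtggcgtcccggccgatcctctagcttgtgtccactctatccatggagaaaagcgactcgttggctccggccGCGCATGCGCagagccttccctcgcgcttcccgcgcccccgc
Ndufaf4: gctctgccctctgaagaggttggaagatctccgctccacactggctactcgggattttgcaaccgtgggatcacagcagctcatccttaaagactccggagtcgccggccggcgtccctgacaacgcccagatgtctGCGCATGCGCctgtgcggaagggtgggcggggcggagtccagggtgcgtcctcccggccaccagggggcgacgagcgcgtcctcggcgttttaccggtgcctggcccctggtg

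The Nrf1 letters of both strands overlap there as a palindrome, which begins 42 bases before the start of Atp5g2 and 113 bases before that of Ndufaf4. Ndufaf5 holds the same palindrome from base 17 after its start. These matches were found in genes picked for their levels and are a description of the sequence. Nrf1 itself was at 78.7 CPM in DMSO, and at 73.9 in MB-3, with a log2 fold change of -0.09 ± 0.06 (SE; adjusted p = 0.58, edgeR).

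H3K9ac, the acetylation of histone H3 at lysine 9 found at active promoters, was mapped by ChIP-seq in the same cells, with 1 peak list per treatment made from merged duplicates, so there is no replicate check and no test. The lists hold 11724 peaks in DMSO and 4673 in MB-3, as positions on mm9 without heights. Names of the nearest gene were at hand for the first 1999 peaks of each list, in the order of the chromosomes, and 29 members were named. A peak named for a member need not lie within it. In DMSO, 19 peaks were named for 12 members, and 11 of them, or 57.9%, overlapped an MB-3 peak by at least 1 bp. Of all 1999 named DMSO peaks 36.6% did, and the member peaks were wider, with a median of 622 bp against 531 bp.

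Of the 12 members, 10 kept at least 1 overlapped peak, a count for which no share over all genes is given here. The exceptions were Sdhc, with its only peak (chr1:173080162-173080668), and Atp5d, the delta subunit of complex V, with both of its peaks. In DMSO, 5 peaks were named for Atp5b as the nearest gene, of which 2 were overlapped. The widest, chr10:127520309-127521519, of 1211 bp, was overlapped by an MB-3 peak of 977 bp, and another of 916 bp by one of 562 bp. The 5 run from 127520309 to 127534856 on mm9, a longer stretch than the gene (chr10:128083273-128090391 on GRCm38), so some lie outside it. The 3 without overlap were 358 to 423 bp wide. Atp5g1 kept a peak of 1090 bp, overlapped by one of 833 bp, and its second, of 435 bp, was not overlapped. The 11 overlapped peaks had a median width of 683 bp and the 8 others of 418 bp.

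In MB-3, 30 peaks were named for 27 members, and all 30 overlapped a DMSO peak. Of all 1999 named MB-3 peaks 1935 did, so this count is near the background. The MB-3 peak was the narrower for 28 of the 30 (93.3%), against 93.9% of all named MB-3 peaks that overlapped a DMSO peak, with medians of 512 bp in MB-3 and 830.5 bp for the DMSO peaks they met. Ndufs1 had the widest difference: an MB-3 peak of 304 bp within a DMSO peak of 2627 bp. Uqcrq, whose transcript level did not overlap between treatments, kept nearly its whole peak, 823 bp in MB-3 against 840 bp in DMSO. Atp5g2 had 3 MB-3 peaks that overlapped its DMSO peaks of 1049 and 1645 bp, 2 of them wholly within and the other with 79.8% of its bases covered.

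**Figure D5:**
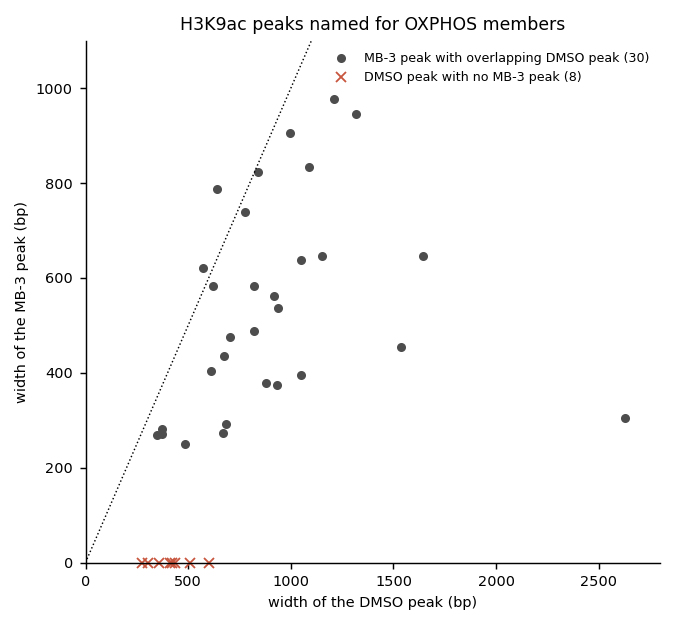
Width in bp of each of the 30 MB-3 H3K9ac peaks named for a member against the width of the DMSO peak it overlaps (grey), with the 8 member peaks of DMSO that no MB-3 peak overlaps at 0 (red crosses). The dotted line marks equal width, and 28 of the 30 points are below it.

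Genes around the complexes were read from lists of the same pathway. Cyc1, the cytochrome c1 of complex III, and Cycs, cytochrome c, had log2 fold changes of -0.02 ± 0.06 and -0.04 ± 0.07 (SE), and 0 of 13 tested genes of complexes outside the symbol rule passed the adjusted threshold (edgeR), with or without the block. Tfam and Polrmt, which package and transcribe mitochondrial DNA, were at 0.01 ± 0.06 and 0.12 ± 0.06 (SE), and 0 of 24 genes of their list passed in either fit. Ppargc1a, a coactivator of respiratory genes, was not analysed here. Of 77 mitochondrial ribosomal protein genes 0 passed, and with the block 1 passed in each direction, Mrps17 higher and Mrps18c lower. Over all genes the block called 3.22% higher and 3.9% lower. The lists for the assembly of complexes III, IV and V (6, 16 and 4 genes) and for coenzyme Q synthesis (11 genes) held no call in either fit. Of 11 further complex I assembly genes, 1, Dmac2, passed with the block alone, at 0.20 (adjusted p = 0.026), against 7.12% of all genes called with the block.

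Carbon metabolism upstream of the complexes gave no call without the block. With it, 4 of 19 glycolysis genes passed, all higher in MB-3, against the 3.22% of all genes called higher: the phosphofructokinases Pfkl (0.20) and Pfkm (0.21), the enolase Eno1 (0.15) and the isomerase Gpi1 (0.13). Their adjusted p-values were 0.0024, 0.010, 0.022 and 0.049 with the block and 0.23 to 0.44 without it. The block called 7.12% of all genes, so 1 call in each of the next lists, of 10 to 13 genes, is near that share. In pyruvate and citrate metabolism, Pdk1, the kinase that restrains entry of pyruvate into the mitochondrial cycle, was at 0.17 (1 of 12 genes). Suclg2, a succinate-CoA ligase subunit, was at 0.21 (1 of 13 genes), and both were higher with the block alone. Pprc1, a coactivator of the Nrf1 pathway, was at 0.15 (1 of 10 regulators). All of these changes were under 1.2-fold.

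Markers of other cell types moved between the same libraries. With the block, 3 of 4 tested mesendoderm markers fell (T, Mixl1 and Eomes), and their list summed to 15.2 to 46.6 CPM in DMSO and 7.95 to 13.5 CPM in MB-3. Of 4 fibroblast markers Col1a1 and Col1a2 fell with the block, and the list summed to 6.02 to 7.89 CPM in DMSO and 4.76 to 5.15 CPM in MB-3. Krt18 fell among 4 trophoblast markers, whose sum was 43.6 to 129.9 CPM in DMSO and 30.2 to 64.9 CPM in MB-3. Of 3 neuroectoderm markers Pax6 rose and Nes fell, of 8 pluripotency markers Tfcp2l1 fell, and none of 4 extraembryonic endoderm markers was called. No defining marker of these lists was at 0 in all libraries, and without the block none passed by edgeR. The block called 7.12% of all genes. The part of these cells in the levels of the oxidative phosphorylation genes was not tested.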

How the data were processed

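Per the labels, 3 DMSO and 3 MB-3 cultures of TNGA cells gave polyA RNA. Bowtie was the aligner (mm10) for the trimmed single-end reads, and the authors deposited raw exon counts per gene; versions, annotation release, read length and use of strand are not given in the sources used here. Of 30677 genes, 30540 were paired with a symbol in GENCODE M21 (GRCm38), and 0 columns were unused. For ChIP-seq the authors used BWA (mm9), merged duplicates and called peaks with MACS2; positions only were deposited, and nearest-gene names came from the study's supplement.

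Counts were tested with edgeR 4.0.16 (filterByExpr, TMM, glmQLFit, glmQLFTest, treatment only) in R 4.3.3 over 20027 genes, with Benjamini-Hochberg adjustment over all of them, on the 6 libraries of 42270312 to 51137896 counts. DESeq2 1.42.0 and limma 3.58.1 (voom) were alternatives, with other normalizations, other filters, the replicate letter as a block and each library left out. CPM is counts scaled by normalized library size. Intervals are 95% and come from the fit. With 3 libraries a group an exact permutation test cannot go below p = 0.1, so none was used. P-values measure the spread between cultures of 1 cell line.

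Groups share the replicate letters A, B and C in the labels, which do not say what a letter shares. Over 20027 genes the deviations of same-letter libraries from their group means correlated at 0.12, 0.29 and 0.23, so the letters were treated as pairing the libraries. All other pairs were below 0. Deviations within a group sum to 0, so these values are not separate evidence of pairing. Both fits were also run on simulated counts with known changes. The simulation held no effect of the replicate letter, so it did not check the block where letters differ. No 2 libraries were duplicates.

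Windows of 50 bases of each member's exons were matched to GRCm38 on both strands, exactly. Python 3.11.15, numpy 2.4.6, pandas 2.3.3 and scipy 1.17.1 were used, with matplotlib 3.10.9 for plots. The members and gene lists were chosen with earlier results of these data known. Named members were all 13 encoded in mitochondrial DNA, the 2 most abundant by CPM and the lowest and highest fold change of each nuclear group, members called with or without the block, isoform sets and members at a named peak. Shmt2, the pseudogenes, Ndufs5, the Cox7b set and the mitochondrial ribosomal protein list were added after their values were seen.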

Additional observations from a re-analysis of the deposited data

How the results depend on the processing

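The count of 0 members called held under RLE and upper quartile factors, TMM without mitochondrially encoded genes, no filter, a minimum of 1 CPM, DESeq2, limma-voom, edgeR's robust option, subunits only, and the counts summed with pseudogenes (chosen after seeing the data). The replicate block gave 2 calls, Ndufa4l2 and mt-Atp8, also with the summed counts (2), and changed no other call of a member. Leaving out each library gave 0 to 1 calls, the 1 being Ndufa4l2 without DMSO replicate B. Calls over all genes went from 41 to 1425 with the block, to 192 with DESeq2, to 194 with no filter, to 25 with upper quartile factors, to 26 with a minimum of 1 CPM, to 18 with limma-voom and to 66 with the robust option, and from 0 to 520 with 1 library left out; the cause was not tested. The nuclear median log2 fold change stayed between -0.05 and -0.04 under other settings with all libraries and ran from -0.08 to 0.01 with 1 library left out, above 0 only without DMSO replicate B. The mitochondrial median ran from -0.11 to -0.07 with all libraries and from -0.20 to -0.01 with 1 left out. The difference of the medians ran from 0.03 to 0.07, and from -0.03 to 0.12 with 1 left out.

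Of 1070 values of 63 named members under the alternatives, 1030 moved by at most 1 SE, and the 35 larger moves were all in fits without 1 library, 14 of them without MB-3 replicate B and 16 without DMSO replicate B. The other 5 were those of Ndufa4l2 and mt-Atp8 that passed the threshold. At least 50% of a DMSO peak was covered for 7 of the 19 member peaks in place of 11, and of those of at least 500 bp 10 of 12 were overlapped. Shares over all peaks at these settings are not given here. In the 200 bases before the start alone, 1.30% of members with a promoter held the Yy1 letters in place of 12.99%, as against 1.40% of all genes. The Nrf1 letters were held by 10.4%, as against 2.41%. The depth limits what can be said of Cox7b2, Ndufa4l2 and the isoform genes with few counts, and nearly identical nuclear copies limit what can be said of the level of mitochondrial genes.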
